A study of Mus musculus with 6 samples.

Results

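Open chromatin was mapped by ATAC-seq, in which a transposase cuts and tags accessible DNA, and 2360 of 75961 regions (3.11%) had a peak in all 3 Utx-knockout samples and in only 1 or 2 of the 3 wild-type samples. They are called partly gained here. They were chosen by the presence of peaks in all 6 samples, so the knockout against wild-type contrast was used up in choosing them, and their counts, levels and widths are given as descriptions with no test. The samples were lineage-depleted bone marrow progenitors of C57BL/6 mice, a mixture enriched for stem and progenitor cells, with genotypes UTX_WT (3 samples) and UTX_KO (3 samples). Age, sex, the driver of the deletion, pooling and whether each sample was a separate animal are not stated in the labels used here, so the spread between samples may be technical. In a mixed population, a peak that appears in more samples can mean more cells with the site open or a more open site in the same cells, and the peak lists cannot tell these apart.

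UTX, encoded by Kdm6a, removes methyl groups from lysine 27 of histone H3 and works within COMPASS-like complexes with the methyltransferases KMT2C and KMT2D at enhancers. Enhancers and promoters that are in use lose nucleosomes and can appear as ATAC peaks. A peak alone does not show that a site is in use. In marrow progenitors, B lineage commitment rests on E proteins, EBF1 and PAX5, dendritic and monocyte fate on IRF8 and TCF4, and erythroid fate on GATA1.

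The promoters of 4 genes inside partly gained regions are shown because the results at these genes turn on them: Rag1, Cd79a and Igll1, which serve pre-B cells, and Chst3, at the widest region. Each window runs from 250 bases before to 50 after the annotated start, as in RefSeq on GRCm38.p6, the assembly of mm10. Capitals mark matches, on either strand, to CAGGTG or CAGCTG (E proteins), TGTGGT (RUNX), CCCNNGGG (EBF), GAGGAAG (PU.1) and CCANNAGNG (CTCF). They are matches of letters, not shown binding sites.
Rag1, chr2:101649483-101649782, minus strand: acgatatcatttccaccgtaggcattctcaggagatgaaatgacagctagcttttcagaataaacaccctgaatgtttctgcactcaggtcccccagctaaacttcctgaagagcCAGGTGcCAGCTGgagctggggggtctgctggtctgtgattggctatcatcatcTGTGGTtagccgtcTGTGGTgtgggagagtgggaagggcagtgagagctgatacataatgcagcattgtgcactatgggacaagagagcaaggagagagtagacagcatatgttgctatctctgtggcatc
Cd79a, chr7:24897247-24897546, plus strand: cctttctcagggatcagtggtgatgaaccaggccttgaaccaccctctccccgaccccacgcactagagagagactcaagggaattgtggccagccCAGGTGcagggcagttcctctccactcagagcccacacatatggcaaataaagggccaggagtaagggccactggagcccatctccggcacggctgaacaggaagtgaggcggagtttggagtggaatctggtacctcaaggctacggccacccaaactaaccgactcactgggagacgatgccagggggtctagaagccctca
Igll1, chr16:16863936-16864235, minus strand: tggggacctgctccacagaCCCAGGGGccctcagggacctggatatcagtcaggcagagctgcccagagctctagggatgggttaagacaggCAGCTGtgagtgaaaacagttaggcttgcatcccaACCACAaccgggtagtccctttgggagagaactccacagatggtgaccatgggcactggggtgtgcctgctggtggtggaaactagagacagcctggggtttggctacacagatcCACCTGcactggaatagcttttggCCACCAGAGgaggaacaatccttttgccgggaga
Chst3, chr10:60219211-60219510, minus strand: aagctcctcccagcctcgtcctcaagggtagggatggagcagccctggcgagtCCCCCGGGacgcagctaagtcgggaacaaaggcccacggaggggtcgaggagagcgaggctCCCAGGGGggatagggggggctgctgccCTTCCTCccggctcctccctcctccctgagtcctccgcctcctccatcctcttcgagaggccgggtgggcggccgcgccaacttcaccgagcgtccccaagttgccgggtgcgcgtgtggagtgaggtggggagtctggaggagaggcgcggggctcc

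The Rag1 window held 2 E protein and 2 RUNX matches, that of Cd79a 1 E protein match, that of Igll1 2 E protein matches and 1 each for RUNX, EBF and CTCF, and that of Chst3 2 EBF matches and 1 PU.1 match. All 4 windows lay wholly inside a partly gained region, with 300 bp of overlap. The Rag1, Cd79a and Igll1 windows held 3, 8 and 2 CpG dinucleotides, and that of Chst3 held 22, with a GC content of 70.0%. The Chst3 window thus held as many CpGs as the median promoter in a region with a peak in all 6 samples, and the 3 pre-B gene promoters far fewer.

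Partly gained regions were a small class between fully gained and shared regions. Among the 37085 regions with a peak in all 3 knockout samples, 3566 had a peak in 0, 1000 in 1, 1360 in 2 and 31159 in 3 wild-type samples, so partly gained regions were 6.36% of them. The mirror class, with a peak in all 3 wild-type and in 1 or 2 knockout samples, had 7155 regions, 15.4% of the 46356 found in all wild-type samples. The knockout lists were shorter (44576 to 50249 peaks against 57405 to 57917), and the depth behind each list is unknown. A shorter list leaves more empty places in knockout samples, and its part in the difference between the 2360 and the 7155 was not tested.

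**Figure D1:**
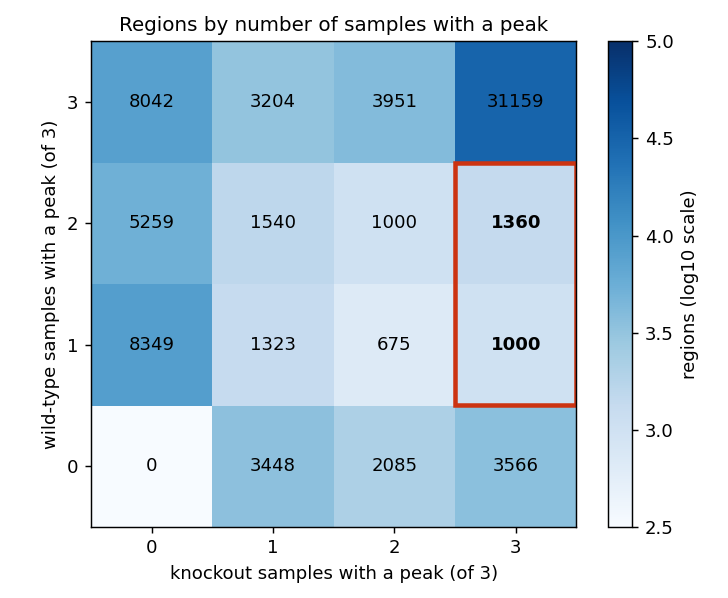
Number of regions by how many knockout samples (horizontal) and wild-type samples (vertical) had a peak, with colour on a log10 scale. The red frame holds the 1000 and 1360 partly gained regions, below the 31159 regions found in all 6 samples and above the 3566 found in all knockout samples alone.

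Each wild-type sample contributed, and wild-type sample 2 contributed most. Of the 2360 regions, 1460 (61.9%) had a peak in wild-type sample 2, 1242 (52.6%) in sample 1 and 1018 (43.1%) in sample 3, although the 3 lists were nearly of the same length. By combination, 618 had peaks in wild-type samples 1 and 2, 446 in samples 2 and 3, and 296 in samples 1 and 3. A further 396 had a peak in sample 2 alone, 328 in sample 1 alone and 276 in sample 3 alone. Without wild-type sample 3 the same rule found 1471 regions, with the allowed combinations fewer by construction. Read from the wild-type side, 14.8% of the 9159 regions with peaks in 2 wild-type samples had a peak in every knockout sample, against 8.81% of the 11347 with a peak in 1. A far larger share of these weakly shared wild-type regions had no knockout peak at all, 57.4% and 73.6%.

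Peaks in partly gained regions were narrow in wild type and wider in knockout. The median width was 269, 266 and 265 bp in wild-type samples 1, 2 and 3, over the regions where each had a peak, and 342, 390.5 and 370 bp in knockout samples 1, 2 and 3. Every knockout median lay above every wild-type median. The smallest peak was 199 bp in each list, so the wild-type peaks were close to the narrowest that the files hold. At regions in all 6 samples the medians were 580 to 592 bp in wild type and 545 to 590 bp in knockout, and these ranges overlap.

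Set against each other region by region, the mean knockout peak was 1.35 times as wide as the mean wild-type peak (median, quartiles 1.04 and 1.94), with wild-type samples that lacked a peak left out. It was over 2 times as wide at 568 regions (24.1%) and narrower at 496 (21.0%). Every knockout peak was wider than every wild-type peak present at 1322 regions (56.0%). In regions with a peak in all 6 samples, every knockout peak was wider than every wild-type peak in 12.8%, and the median ratio was 0.93. Since the rule keeps regions where wild-type calls were missing, it keeps weak wild-type peaks, and nothing is read from these differences. In the mirror class the roles were exchanged, with wild-type peaks 1.24 times as wide as the knockout peaks present.

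**Figure D2:**
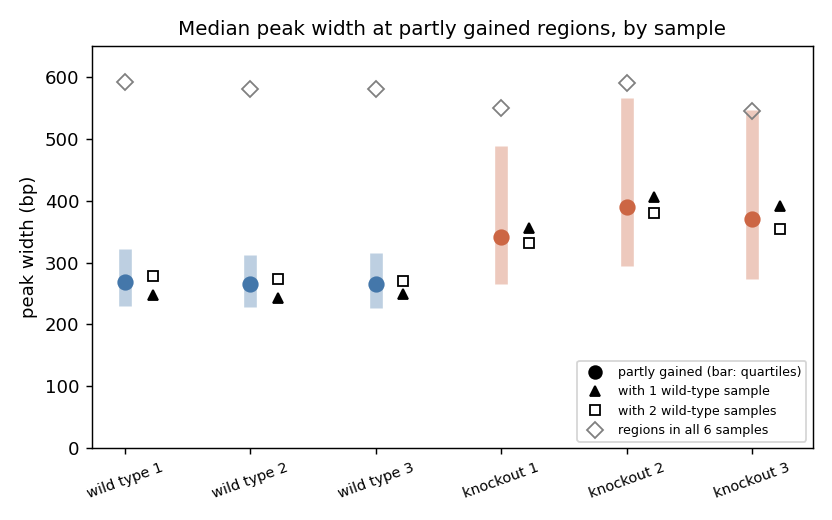
Median peak width in bp in each sample at partly gained regions (filled circles, bars from the lower to the upper quartile), at those with a peak in 1 (triangles) or 2 (squares) wild-type samples, and at regions in all 6 samples (diamonds). Wild-type medians of 265 to 269 bp lie below the knockout medians of 342 to 390.5 bp, while the diamonds of both genotypes lie between 545 and 592 bp.

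By width, partly gained regions lay close to fully gained regions and apart from regions with a peak in all 6 samples. Regions with 1 wild-type peak had a median of the mean knockout width of 384 bp and of the mean wild-type width of 246 bp, and those with 2 had 353 and 278 bp. Just outside, fully gained regions had a median knockout width of 397 bp, and regions with a peak in all 6 samples had 562 bp in knockout and 584 bp in wild type. Few partly gained regions were wide. A mean knockout width of 1000 bp or more was found at 90 of them, which was 1.31% of the 6873 such regions in all 3 knockout samples, against 21.0% of the 1162 regions below 250 bp. Where a wild-type sample had no peak, it seldom had one just beside the region. A peak of that sample lay within 1 kb at 14.4%, 16.0% and 13.3% of such regions for samples 1, 2 and 3, and the median distance to it was 5.17 to 6.11 kb.

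Most partly gained regions lay away from gene ends, but more of them lay there than of the fully gained regions. Of the 2360, 293 (12.4%) lay within 1 kb of either end of a protein-coding gene, 1063 (45.0%) elsewhere inside a gene and 1004 (42.5%) between genes. The shares at gene ends were 7.29% of fully gained, 9.22% of partly lost and 34.2% of the regions present in all 6 samples. A promoter window was touched by 170 partly gained regions (7.2%), against 3.93% of fully gained and 29.4% of regions in all 6 samples. The median distance to the nearest annotated start was 17.3 kb, between the 23.6 kb of fully gained and the 7.75 kb of regions in all 6 samples. Over all 75961 regions, 18.7% lay at gene ends, 14.1% touched a promoter window and the median distance was 13.6 kb, so partly gained regions lay farther from genes' starts than the whole set. These are shares of regions, with no test, and exons and UTRs were not annotated here.

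**Figure D3:**
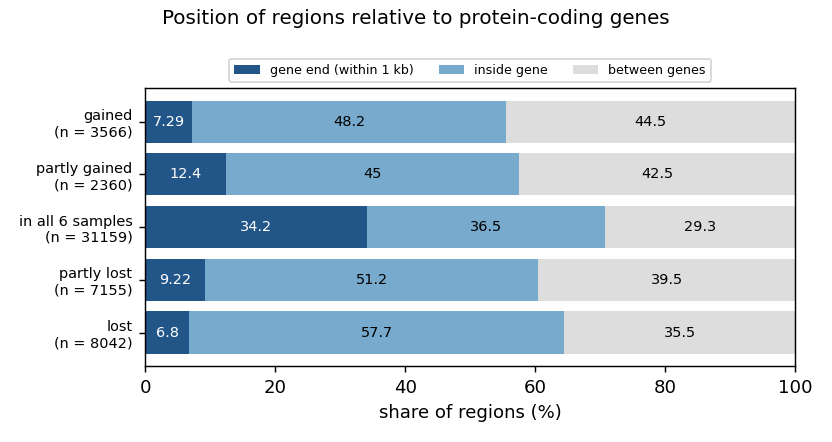
Share of regions (percent) at most 1 kb from the start or end of protein-coding genes, inside a gene or between genes, for 5 classes of region. Gene ends take 12.4% of partly gained regions, against 7.29% for fully gained and 34.2% for shared regions.

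Partly gained regions had fully gained regions as neighbours more often than the other classes, leaving aside fully gained regions themselves. A fully gained region lay within 20 kb of 23.5% of them, against 11.9% of regions in all 6 samples, 9.21% of partly lost and 7.71% of lost regions. It was 26.9% with 1 wild-type peak and 21.0% with 2. A lost region lay within 20 kb of 18.1%, against 28.5% of all regions. At the level of genes, 2194 of 21887 protein-coding genes had a partly gained region in or within 20 kb, and 683 of them (31.1%) also had a fully gained one. Among genes with regions but no partly gained one, 11.4% did. Genes with more regions have more chances of each, and this was not matched.

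The partly gained region with the widest mean knockout peak lay inside Chst3, which encodes a chondroitin sulfotransferase, on chromosome 10 at 60216073 to 60220534. Its peaks measured 3733, 4032 and 4434 bp in knockout samples 1, 2 and 3 (4066 ± 352 bp, SD, n = 3), and in wild type it was called in sample 2 alone, at 515 bp. Next among regions with 1 wild-type peak came one inside Zfp827, a zinc finger gene. It measured 2585, 2605 and 2157 bp against 218 bp in wild-type sample 1 alone. At Chst3 and Zfp827, every knockout peak was wider than the wild-type peak, but both regions were picked for their wide knockout peaks.

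A region 6903 bp from Klrb1c, the natural killer cell receptor gene, measured 1295, 1913 and 2081 bp against 263 bp in wild-type sample 2. The Bcr region, at an end of the gene whose human counterpart fuses to ABL1, measured 1287, 1370 and 1886 bp against 224 bp in wild-type sample 2. At both, which were picked for wide knockout peaks too, every knockout peak was over 1000 bp. The wild-type peak was close to the narrowest in the files. Others among the widest with 1 wild-type peak lay near Adra2c, Adam19, Irf8 and 2900026A02Rik, and 1 had no protein-coding gene within 50 kb.

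Of regions with 2 wild-type peaks, the widest lay 1413 bp from Klhl14 on chromosome 18, at 2424, 2526 and 2568 bp in knockout (2506 ± 74.1 bp, SD, n = 3) against 262 and 243 bp in wild-type samples 2 and 3. Tox, a factor of T cell development, had a region at a gene end of 1714, 2256 and 1839 bp against 203 and 282 bp in wild-type samples 1 and 2. Sptbn1, which encodes a spectrin, had one of 1531, 1743 and 1681 bp against 484 and 257 bp in samples 1 and 3. The knockout and wild-type widths did not overlap at any of these 3, which were likewise picked for their wide knockout peaks. The rest of the 10 lay near Plekha2, Zdhhc7, Tmem121 and Rtl6, and 3 had no protein-coding gene within 50 kb.

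Foxp1, a forkhead factor needed for early B cell development, had the most partly gained regions of any gene, 7 of the 81 regions in or within 20 kb, beside 12 fully gained, 8 partly lost and 1 lost. All 7 lay inside the gene on chromosome 6. At 99225973 to 99227043 the peaks measured 809, 1059 and 903 bp in knockout and 242 bp in wild-type sample 2 alone. At 99374350 to 99375168 they measured 691, 819 and 758 bp against 319 and 363 bp in wild-type samples 2 and 3. At 99342438 to 99342688 the widths overlapped, at 206, 244 and 209 bp against 214 bp in wild-type sample 1. Foxp1 regions thus ranged from wide knockout peaks to narrow ones whose widths overlapped with wild type.

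Pakap, which encodes a kinase-anchoring protein, had 6 of 22 regions partly gained and 5 fully gained. With 4 partly gained regions each followed Aff1 (of 36 regions), Asb2 (of 15), Irf8 (of 15), Itga9 (of 32), Mtss1 (of 39), Pde2a (of 17), Sbk1 (of 16), Sgk1 (of 12) and Socs2 (of 11). Sgk1 encodes a kinase induced by glucocorticoids, and Aff1 a partner of KMT2A in leukaemic fusions. The widest of the Aff1 regions measured 1115, 1652 and 1189 bp in knockout and 220 and 256 bp in wild-type samples 1 and 2, and another measured 243, 306 and 247 bp against 300 and 341 bp. As at Foxp1, wide and narrow regions stood side by side. Most genes had few, with 1886 genes at 1, 252 at 2 and 56 at 3 or more partly gained regions.

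Across 22 lists of genes for blood lineages, chromatin complexes and signalling, partly gained regions made up 2.88% of the 62098 regions in or within 20 kb of any protein-coding gene, and the lists ranged from 0% to 10.3%. Near B lymphoid surface and recombination genes 10 of 97 regions were partly gained, and near B lineage transcription factors 7 of 122 (5.74%). T and NK lymphoid genes had 4 of 60 (6.67%), dendritic cell genes 7 of 116 (6.03%) and chemokine receptor and homing genes 7 of 138 (5.07%). At the other end, GATA and erythroid genes had 0 of 227, interferon response genes 0 of 73 and mast cell and basophil genes 0 of 59. The median gene had 0 partly gained regions, as over all 21887 genes, except in the B lymphoid surface and B lineage factor lists. There the medians were 1 and 0.5. In the B lymphoid surface list, 1 region was counted for both Rag1 and Rag2, and 1 for both Igll1 and Vpreb1. Without wild-type sample 1 the B surface share was 5.21% (5 of 96) and without sample 3 the B factor share was 2.5% (3 of 120), where the shares near any gene were 2.0% and 1.85%.

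**Figure D4:**
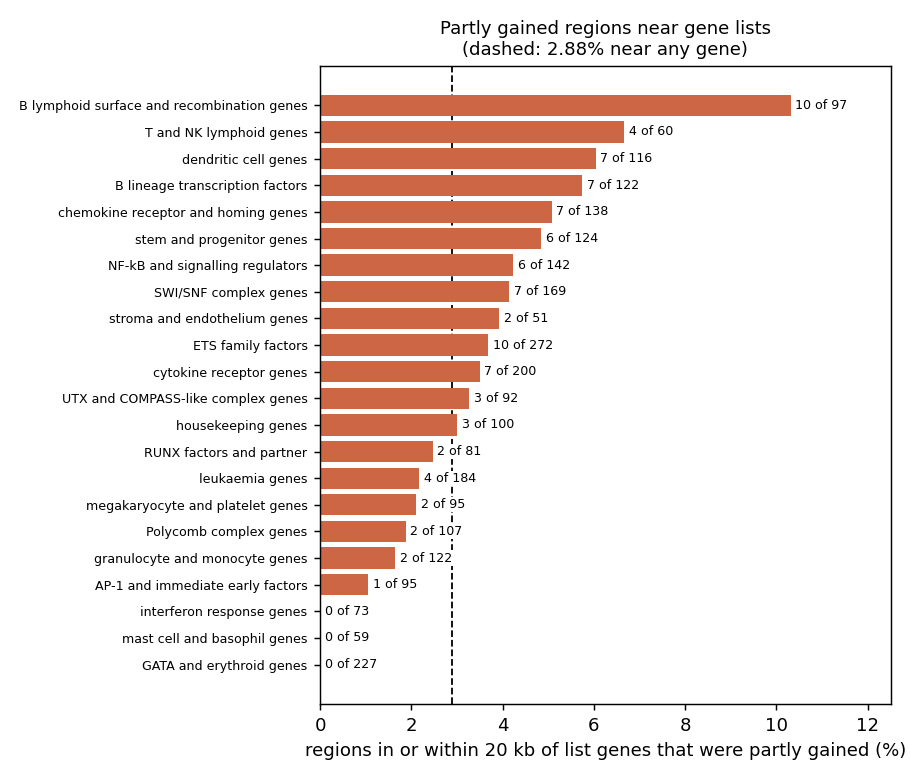
Share (percent) of the regions in or within 20 kb of the genes of each list that were partly gained, with the counts beside each bar and a dashed line at the 2.88% found near any protein-coding gene. B lymphoid surface and recombination genes are at 10.3%, and GATA and erythroid, mast cell and interferon lists are at 0.

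The number of regions with a peak also differed between the genotypes over whole lists, whatever the class of the region. As background, the peak lists of the samples held 57405 to 57917 peaks in wild type and 44576 to 50249 in knockout. Fewer peaks in knockout were thus found over the whole genome as well. The counts below include partly gained regions, which have a peak in every knockout sample by the rule. Of the 97 regions near B surface genes, 53, 58 and 58 had a peak in wild-type samples 1, 2 and 3 and 68, 82 and 79 in knockout samples 1, 2 and 3. Of the 122 near B lineage factors, 63 to 68 had a peak in wild type and 79 to 99 in knockout. All 10 B lineage factor genes and 13 of the 14 B surface genes had a peak nearby in every sample, and none of these genes was without a peak in all samples. Of the 227 near GATA and erythroid genes, 174 to 205 had a peak in wild type and 80 to 91 in knockout. Of the 124 near stem and progenitor genes, 84 to 92 had one in wild type and 58 to 69 in knockout. T and NK lymphoid genes had 36 to 40 of 60 regions with a peak in wild type and 37 to 42 in knockout, with none near Gzmb. Stroma and endothelium genes had 35 to 41 of 51 and 25 to 32, with none near Emcn. The part of a shift in cell composition in the partly gained regions was not tested.

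Among B lineage transcription factor genes, Ebf1 and Pax5 each had 2 partly gained regions, and Foxo1, Ikzf3 and Lef1 had 1 each. Bach2, Tcf3, Pou2af1, Spib and Irf4 had 0. Bach2 had the most regions of this list, 34, of which 2 were fully gained and 7 partly lost. Of these 34, 27, 26 and 23 had a peak in wild-type samples 1, 2 and 3, and 17, 27 and 19 in knockout samples 1, 2 and 3. Pax5, which holds cells in the B lineage, had both inside the gene on chromosome 4. At 44671037 to 44671976 they measured 651, 811 and 921 bp in knockout samples 1, 2 and 3 and 291 bp in wild-type sample 1 alone, and at 44672521 to 44673400 they measured 590, 687 and 880 bp against 312 and 319 bp in wild-type samples 1 and 2. Every knockout peak at Pax5 was the wider, and 3 of its 11 regions were fully gained.

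Ebf1, which opens the B cell programme, had a region inside the gene (chromosome 11, 44892893 to 44893554) of 403, 601 and 585 bp in knockout and 335 and 256 bp in wild-type samples 1 and 2. At the end of the gene, 45008028 to 45008431, knockout peaks of 324, 360 and 300 bp overlapped with wild-type peaks of 326 and 203 bp. Ikzf3, encoding the Ikaros relative Aiolos, had a region at a gene end (chromosome 11, 98545528 to 98546232) of 650, 697 and 669 bp in knockout (672 ± 23.6 bp, SD, n = 3) and 199 bp in wild-type sample 3 alone. Of these, the Ikzf3 region had the most even knockout peaks.

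The components of the pre-B cell receptor and of V(D)J recombination were among the partly gained regions too. Cd79a, encoding the signalling chain Ig-alpha, had a region over its promoter (chromosome 7, 24897071 to 24897871) of 506, 734 and 801 bp in knockout and 221 and 229 bp in wild-type samples 1 and 2. Cd79b, encoding its partner Ig-beta, had 3 of 11 regions partly gained. The widest (chromosome 11, 106309665 to 106311024), 317 bp from the gene, measured 943, 1360 and 1223 bp in knockout and 345 bp in wild-type sample 2 alone. Both Ig chains had knockout peaks that were all wider than the wild-type ones at these regions.

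Rag1, a subunit of the recombinase, had a region over its promoter (chromosome 2, 101649168 to 101649855) of 559, 683 and 659 bp in knockout (634 ± 65.8 bp, SD, n = 3) and 222 bp in wild-type sample 1 alone. A region 3173 bp away measured 416, 494 and 321 bp against 294 and 205 bp in wild-type samples 2 and 3. Igll1, encoding the surrogate light chain lambda5, had a region over its promoter (chromosome 16, 16863690 to 16864505) of 479, 651 and 769 bp against 312 and 285 bp in wild-type samples 2 and 3. These are the promoters printed above with E protein matches, and in each the widths of the genotypes did not overlap.

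Ms4a1, encoding the B cell antigen CD20, had a region at a gene end (chromosome 19, 11265943 to 11267207) of 901, 1234 and 749 bp in knockout and 318 bp in wild-type sample 3 alone. At Cd74, encoding the invariant chain of MHC class II, the widths were alike, with 390, 317 and 289 bp in knockout and 307 and 294 bp in wild-type samples 2 and 3. The remaining region of this list lay inside Dntt, the gene of the polymerase that adds bases at V(D)J joints, with 226, 285 and 313 bp in knockout and 229 and 210 bp in wild-type samples 2 and 3.

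**Figure D5:**
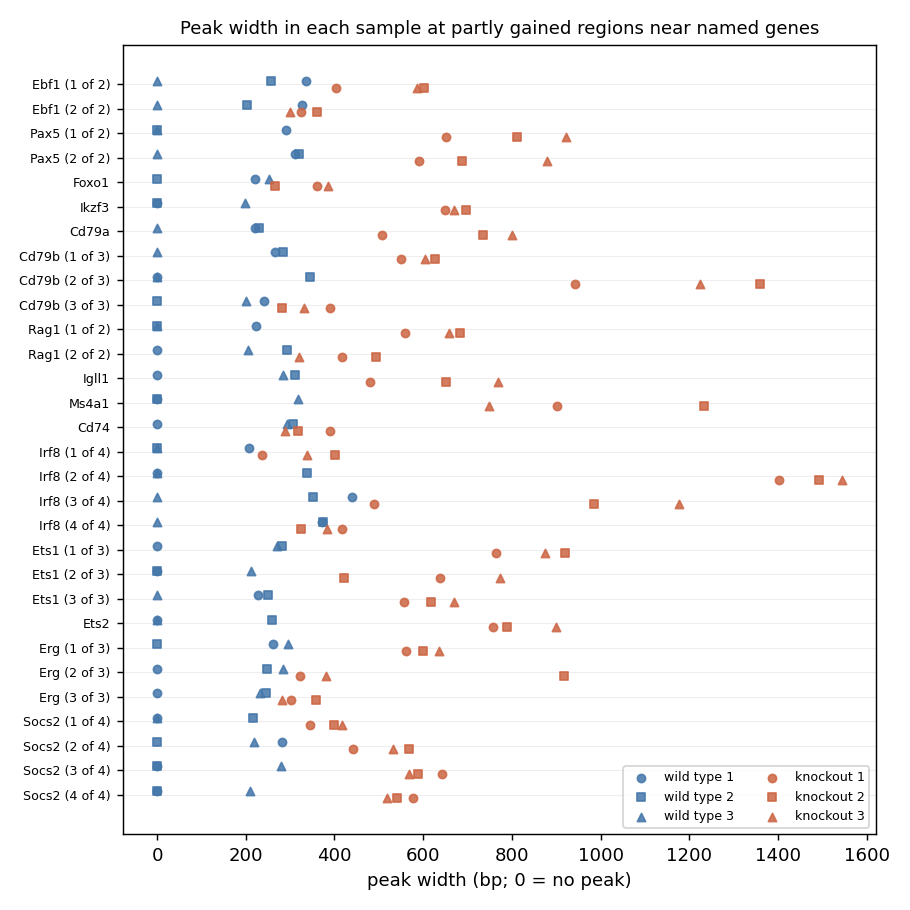
Peak width in bp in each of the 6 samples (0 where no peak was called), with wild type in blue and knockout in orange. The partly gained regions drawn are a selection near B lineage, dendritic, ETS and Socs2 genes. Those near Tcf4, Flt3, Etv6, Fli1, Lef1 and Dntt are not drawn, and at Tcf4, Flt3 and Etv6 the widths of the genotypes overlapped. Regions are numbered by position within each gene. The Irf8 region with knockout peaks of 1401 to 1543 bp stands apart from its wild-type peak of 339 bp, while at Cd74 the widths of both genotypes lie between 289 and 390 bp where a peak was called.

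Irf8, the factor of dendritic and monocyte fate that also acts in B cells, had 4 of 15 regions partly gained, the most of any listed gene, equal with Socs2. Inside the gene on chromosome 8 (120745322 to 120746961) peaks measured 1401, 1491 and 1543 bp in knockout (1478 ± 71.8 bp, SD, n = 3) and 339 bp in wild-type sample 2 alone. A region 391 bp beyond the gene measured 488, 986 and 1176 bp against 439 and 351 bp in wild-type samples 1 and 2, and one 3490 bp beyond it 416, 324 and 384 bp against 371 and 374 bp. The first and second of these separated the genotypes by width and the last did not.

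Tcf4, the factor of plasmacytoid dendritic cells, had 2 of 33 regions partly gained and 4 fully gained, and the partly gained ones overlapped in width. Flt3, a growth factor receptor of early progenitors, had 1 of 14, narrow in every sample with a peak, at 221, 208 and 272 bp in knockout and 222 and 234 bp in wild-type samples 2 and 3. Among T and NK genes, Tcf7, encoding TCF1, had 1 of 3 regions partly gained, at 622, 643 and 727 bp against 326 bp in wild-type sample 2 alone. Gata3, a T cell factor, had 2 of 7. The first (chromosome 2, 9876846 to 9877600) was wider in knockout, at 755, 584 and 446 bp against 265 and 272 bp in wild-type samples 1 and 3. The one that reaches its promoter (chromosome 2, 9878250 to 9878682) was narrower in knockout, at 199, 269 and 268 bp against 273 and 424 bp in wild-type samples 1 and 3. Presence in more knockout samples thus did not always go with a wider peak.

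Of the homing receptors, Cxcr4 had 2 of 14 regions partly gained and 5 fully gained, and Ccr7 and Ccr9 had 1 each. The Ccr7 region at a gene end measured 477, 490 and 474 bp in knockout (480 ± 8.50 bp, SD, n = 3) and 289 bp in wild-type sample 1 alone. The partly gained Cxcr4 regions were narrow, and at 128597188 to 128597636 on chromosome 1 wild-type sample 1, the only one with a peak, had the widest at 390 bp, against 332, 271 and 219 bp in knockout. Every knockout peak was wider than the lone wild-type peak at Ccr7, and every one was narrower at this Cxcr4 region.

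ETS family genes had 10 of 272 regions partly gained (3.68%), near the 2.88% background, and 8 of the 10 had 2 wild-type peaks. Ets1, a lymphoid ETS factor, had 3 of 20. Outside it by 18230 bp (chromosome 9, 32617090 to 32618011) peaks measured 764, 919 and 875 bp in knockout and 282 and 271 bp in wild-type samples 2 and 3, and inside it (32745869 to 32746537) 557, 617 and 669 bp against 228 and 249 bp in samples 1 and 2. Ets2 had 1 of 5, at a gene end (chromosome 16, 95720065 to 95720987), with 757, 789 and 900 bp against 260 bp in wild-type sample 2 alone. At these regions the knockout peaks were all wider than the wild-type ones.

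Erg, an ETS factor of stem cells, had 3 of 36 and no fully gained region. The most separated measured 562, 600 and 635 bp in knockout and 261 and 295 bp in wild-type samples 1 and 3, and that at the end of the gene 301, 358 and 282 bp against 246 and 231 bp. Etv6 had 2 of 46, where the widths overlapped, and the remaining ETS region lay near Fli1. Runx1, a master factor of blood stem cells, had 2 of 36, both narrow, at 228, 267 and 247 bp against 278 bp in wild-type sample 1, and at 229, 296 and 239 bp against 373 bp in sample 3. At Runx1 the lone wild-type peak was wider than every knockout peak in both regions.

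Stem and progenitor genes had 6 of 124 (4.84%), near Meis1 (3 of 16), Mllt3 (2 of 20) and Mecom (1 of 10). At Meis1, a partner of HOX proteins, widths overlapped in the region with the widest peaks, with 537, 817 and 750 bp in knockout and 808 and 257 bp in wild-type samples 1 and 3. Mllt3, a stem cell maintenance factor, had 612, 666 and 745 bp against 338 and 397 bp in samples 1 and 3 at a region inside the gene on chromosome 4. Granulocyte and monocyte genes had 2 of 122, near Fcnb and Itgam, and megakaryocyte and platelet genes 2 of 95, near Selp and Tubb1. The Selp region, at an end of the gene for the adhesion receptor P-selectin, measured 1010, 916 and 1080 bp against 200 and 204 bp in wild-type samples 1 and 2.

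Socs2, an inhibitor of cytokine signalling, had 4 of 11 regions partly gained and 2 fully gained, and 0 lost or partly lost. Inside the gene on chromosome 10, regions at 95414276 to 95414929 and 95415545 to 95416162 measured 643, 588 and 568 bp and 576, 542 and 519 bp in knockout, with 279 and 210 bp in wild-type sample 3 alone. The relatives Socs1 and Socs3 had 1 each. Il21r, a cytokine receptor gene, had 3 of 18, of which one measured 854, 850 and 907 bp against 303 bp in each of wild-type samples 1 and 2, while at another the knockout peaks of 268, 311 and 252 bp were narrower than the wild-type peaks of 411 and 353 bp. All 4 regions at Socs2 had wider knockout peaks, and those at Il21r went both ways.

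Genes of chromatin complexes were near the background. UTX and COMPASS-like complex genes had 3 of 92 (3.26%), Polycomb genes 2 of 107 (1.87%) and SWI/SNF genes 7 of 169 (4.14%). Kdm6a had 1 of 6, inside the gene (chromosome X, 18239583 to 18239915), at 212, 232 and 333 bp in knockout and 262 and 231 bp in wild-type samples 2 and 3. These widths overlap, and since the labels do not give the deleted exons, the region does not check the deletion. Kmt2a measured 432, 690 and 920 bp against 455 and 267 bp in wild-type samples 2 and 3, overlapping as well. Arid1b, a SWI/SNF subunit, had a region of 695, 738 and 1133 bp against 219 bp in wild-type sample 2 alone.

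Housekeeping genes had 3 of 100 regions partly gained (3.0%), among them 1 near Eef1a1, and leukaemia genes 4 of 184 (2.17%). AP-1 and immediate early factor genes had 1 of 95 (1.05%), near Jund, and RUNX genes 2 of 81 (2.47%). Stroma and endothelium genes had 2 of 51 (3.92%), both near Vcam1, an adhesion molecule, with peaks of 207 to 350 bp in knockout. For GATA and erythroid genes the 0 of 227 stood beside 72 lost and 24 partly lost regions and 4 fully gained ones. Without knockout sample 3 the erythroid count was 1 of 225.

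Over all promoters, those in partly gained regions held E protein letters more often than all promoters did. Of 185 promoter windows (173 genes) that touched a partly gained region, 87 (47.0%) held CAGGTG or CAGCTG, against 32.9% of all 32851 windows, 28.7% of those in regions with a peak in all 6 samples and 45.2% of those in fully gained regions. The EBF letters CCCNNGGG were in 22.2%, against 13.7%, 18.2% and 28.0%. The ETS letters CCGGAAG were in 3.78%, against 8.86% of all windows and 19.0% of those in regions found in all 6 samples. The GATA letters AGATAA were in 9.19%, against 11.2% of all windows, 11.3% of those in partly lost and 31.8% of those in lost regions. Their share was lower in the windows of fully gained regions, at 3.57%, and in promoters open in every sample, at 5.64%.

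Of the other letters searched, the shares in the 185 windows and in all windows were as follows, with GAGGAAG (PU.1) in 15.7% against 13.6%, TGTGGT (RUNX) in 14.1% against 16.8%, TGANTCA (AP-1) in 5.95% against 7.81%, GAAANNGAA (IRF) in 5.95% against 8.56%, TTGCNNAA (CEBP) in 7.03% against 10.8% and CCANNAGNG (CTCF) in 22.2% against 17.9%. Every motif was searched on both strands. GC content also differed between these sets of windows, at a median of 58.3% in the 185 windows, 52.7% in all windows and 61.7% in those in regions found in all 6 samples, and its part in the shares was not tested. The median number of CpGs was 13, against 7 and 22. In GC content and CpG number the promoters lay between all promoters and those open in every sample.

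A microRNA gene also lay in the set, and its mature sequence is shown to identify it. The hairpin of Mir9-2 on chromosome 13 (83738814 to 83738885, plus strand) overlapped a partly gained region at 83737782 to 83738846, with peaks of 422, 590 and 1065 bp in knockout and 259 bp in wild-type sample 2 alone. The mature product of this arm is shown with its seed, bases 2 to 8, in capitals, as in RefSeq on GRCm38.p6.
mmu-miR-9-5p: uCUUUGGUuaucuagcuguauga

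Partly gained regions were spread over all chromosomes, with 2.72% of regions on chromosome 4 to 3.78% on chromosome 12 among autosomes, and 4.14% (68 of 1643) on chromosome X. Chromosome Y had 3 of 14 regions, each without a peak in wild-type sample 1. The labels do not give sex, and the part of a difference in sex between samples in the regions on X and Y was not tested. On autosomes alone there were 2288 partly gained regions.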

How the data were processed

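The authors deposited 1 list of peaks per sample, and its values are coordinates (chromosome, start and end) with no read count, score or summit. Per the submitters' processing notes, MACS2 and mm10 were used. Versions, aligner, filters and treatment of duplicates and insertion sites are not stated in the labels used here, and depth is unknown, so no value has a counting interval. Peaks of any samples with 1 bp or more in common were joined to regions. Peak width is the summed width of a sample's peaks in a region, and 0 where there is none. Genes are the 21887 protein-coding genes of RefSeq on GRCm38.p6, and promoter windows come from the same assembly. Regions were tied to genes within 20 kb, and to gene ends within 1 kb. Of 328 different list genes, 327 matched by symbol.

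Members and gene lists were chosen with earlier results of these data known. Named were the 10 widest regions with 1 and with 2 wild-type peaks (nearest gene within 50 kb), the 10 genes with most members (ties by alphabet, which left out Socs2, named by its list), up to 3 genes per list, regions at ends of list genes, and Kdm6a. Lef1, Bach2, Tcf3, Pou2af1, Spib, Irf4, Dntt, Fli1, Cd38, Jag2, Cd200, Prom1, Xist and Mir9-2 were named after their values were seen. Some regions that the rule names are not reported here. Merging and classing were tested on simulated peak lists. Computations used Python 3.11.15, numpy 2.4.6 and pandas 2.3.3. Alternatives were each sample left out, the widest 50% of peaks, equal list lengths, other overlaps, autosomes and other gene distances.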

Additional observations from a re-analysis of the deposited data

How the results depend on the processing

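Partly gained regions numbered 1471 to 3144 with a sample left out, 1223 with the widest 50% of peaks and 3694 with the same number of peaks (the widest 44576) per sample. With equal numbers, 1061 of the 2360 were still partly gained and 1078 became fully gained, and with the widest 50% of peaks 1143 had no region left. The median knockout width was 327 to 374 bp with a sample left out and 640 bp with the widest 50%, which removes narrow peaks by construction. The share at gene ends was 17.3% with the widest 50% of peaks and 19.5% with a window of 2.5 kb. The share of regions near list genes that were partly gained, 3.4%, was 2.02% to 4.42% with a sample left out, 2.67% with the widest 50% and 5.82% with equal numbers. Near any gene the share, 2.88%, was 1.85% to 3.89%, 2.87% and 5.39% in the same settings. With equal numbers the share near B lineage factors was 16.1% (18 of 112), and near B surface genes 15.7% (14 of 89). Near GATA and erythroid genes the share was 0 to 1.30% over all alternatives. The share with 2 wild-type peaks could not be computed with a wild-type sample left out. The causes of these shifts were not tested beyond the constructions named. Presence of a peak depends on depth, which is unknown. No paired analysis was possible because the contrast was used to choose the regions, so that no test was made.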

Other observations

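Among other promoters in partly gained regions, some of surface and signalling genes are given here, named after their values were seen. The 173 genes with such promoters also include transcription factor genes and predicted genes. At Cd38, an enzyme on lymphocytes and progenitors, peaks measured 1367, 1078 and 983 bp in knockout samples 1, 2 and 3 and 203 and 325 bp in wild-type samples 2 and 3. At Jag2, a Notch ligand, they measured 731, 878 and 690 bp against 201 bp in wild-type sample 1 alone, in a promoter window with 63 CpGs. At Cd200, an inhibitory surface protein, they measured 468, 524 and 492 bp against 202 bp in wild-type sample 3 alone. In these 3 every knockout peak was wider than every wild-type peak. At Prom1, encoding the progenitor antigen CD133, knockout peaks of 586, 1144 and 496 bp overlapped with wild-type peaks of 655 and 657 bp in samples 1 and 2.

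The region at the promoter of Xist, the RNA that silences an X chromosome in female cells, had peaks of 552 and 649 bp in wild-type samples 2 and 3 and of 460, 574 and 386 bp in knockout, and none in wild-type sample 1. The labels used here do not give the sex of the mice, and whether wild-type sample 1 differed in sex from the other samples was not tested. The 3 partly gained regions on chromosome Y lacked a peak in wild-type sample 1. By the rule, every knockout sample had a peak at the Xist region and at each of these 3 regions. The sex of a sample is therefore not read from them here.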
